A study of Saccharomyces cerevisiae with 5 samples.

Results

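The genes described here encode the nuclear part of the mitochondrial respiratory chain and of the mitochondrial ATP synthase of budding yeast, with the HAP transcription factors that activate many of them. They were picked by name, and a spot was taken when its gene name or its systematic name matched. All 49 genes were found among the 6256 genes on the arrays, and all 49 had the same systematic name on the array and in the RefSeq gene table. The 49 genes were read from 78 spots, with 1 spot for 20 genes and 2 spots for 29 genes.

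In the mitochondrial inner membrane, dehydrogenases pass electrons to ubiquinone, complex III passes them on to cytochrome c, and complex IV passes them to oxygen. Budding yeast has no proton-pumping complex I and uses single-protein NADH dehydrogenases in its place. The protons moved by complexes III and IV drive the ATP synthase, a rotary enzyme with a catalytic F1 head and a membrane-bound part joined by stalks. Yeast growing on glucose ferments, and many of these genes are known as glucose-repressed genes that are switched on by the HAP complex when glucose runs low.

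The strain labelled YFR23, a haploid chs2Δ mutant in which the gene for chitin synthase II was replaced by a KAN cassette, was set against its haploid wild type parent MGD353. Chitin synthase II makes the primary septum that closes the bud neck at cytokinesis. Both strains are MAT α and share mutant alleles of HIS3, URA3, TRP1 and LEU2 with the markers ADE+, ARG and cyhR, and each strain is a single isolate. Cultures grew at 26 °C in synthetic medium with 2% glucose, and the submitters' text also names a medium without histidine, with no word on which cultures received it. Each of 5 two-colour Agilent yeast oligonucleotide arrays compared RNA from chs2Δ with RNA from wild type, with chs2Δ in Cy5 on replicates 1, 3 and 5 and in Cy3 on replicates 2 and 4. The submitters count 5 biological replicates and elsewhere write of triplicate cultures, and their text also spells the wild type strain MGD-353-46D and MGD343-56D.

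The sample titles carry another strain name, YJR6, which the study's strain list gives to a myo1Δ mutant, while the source names give YFR23. CHS2 itself was lower in chs2Δ on every array, with log2 ratios of -0.35, -0.56, -0.95, -1.63 and -0.58 on replicates 1 to 5 and a mean of -0.81 (SE 0.17, limma adjusted p = 0.0025). Its signal was still above background in chs2Δ on 4 of 5 arrays, and the sources used here do not say whether the probe lies in the deleted stretch. MYO1, the gene of the other strain, had a mean log2 ratio of -0.31 (SE 0.06, limma adjusted p = 0.0013). In the rest of the text chs2Δ stands for the RNA labelled YFR23.

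The median background-subtracted signal was 77.5 to 197 units in chs2Δ channels, against 213 to 431 units in wild type channels. Between 76.9% and 85.6% of genes were above background in chs2Δ, against 90.1% to 94.5% in wild type. Ratios of all genes correlated with Pearson's r between 0.869 and 0.978 from array to array, and those of the 49 genes between 0.906 and 0.981. These are correlations across genes, which are not independent replicates. Of the 49 genes, 44 were above background in both strains on all 5 arrays. The part of the lower chs2Δ signal in the results was not tested.

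A ratio below is the log2 of chs2Δ over wild type after background correction and loess normalization, so that 1 means a doubling, and a level is the normalised log2 intensity of 1 strain on 1 array. Values on 5 arrays are listed from replicate 1 to replicate 5. A gene was called higher or lower at an adjusted p below 0.05 in limma, with the adjustment over all 6246 genes tested. RNA came from whole cultures, so a larger share of cells that express a gene cannot be told apart from more RNA per cell.

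Most of the respiratory genes were higher in chs2Δ. Of 49 genes, 40 were called higher and 3 lower, namely CYC1, NDE1 and HAP3, while 6 passed in neither direction. Over all genes tested, 35.7% were called higher and 36.0% lower, 71.6% in either direction. The median ratio of the 49 genes was 0.53, a 1.44-fold difference, beside -0.0062 for all genes. At least 2-fold higher were 20 of the 49 genes, where 10.2% of all genes were called higher and at least 2-fold, and 0 of the 49 were at least 2-fold lower, where the share over all genes was 5.48%.

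The direction was the same on every array for most of them. The ratio was above 0 on all 5 arrays for 37 of 49 genes (75.5%), beside 34.0% of all genes, and below 0 on all 5 for 4 genes (8.16%), beside 34.9% of all genes. For 31 of the 49 genes (63.3%) every chs2Δ level was above every wild type level, where this held for 25.2% of all genes. For 3 genes (6.12%) every chs2Δ level was below every wild type level, beside 26.2% of all genes. Levels overlapped for 14 genes, and ATP2 had a poor spot on replicate 2 and was measured on 4 arrays.

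**Figure D1:**
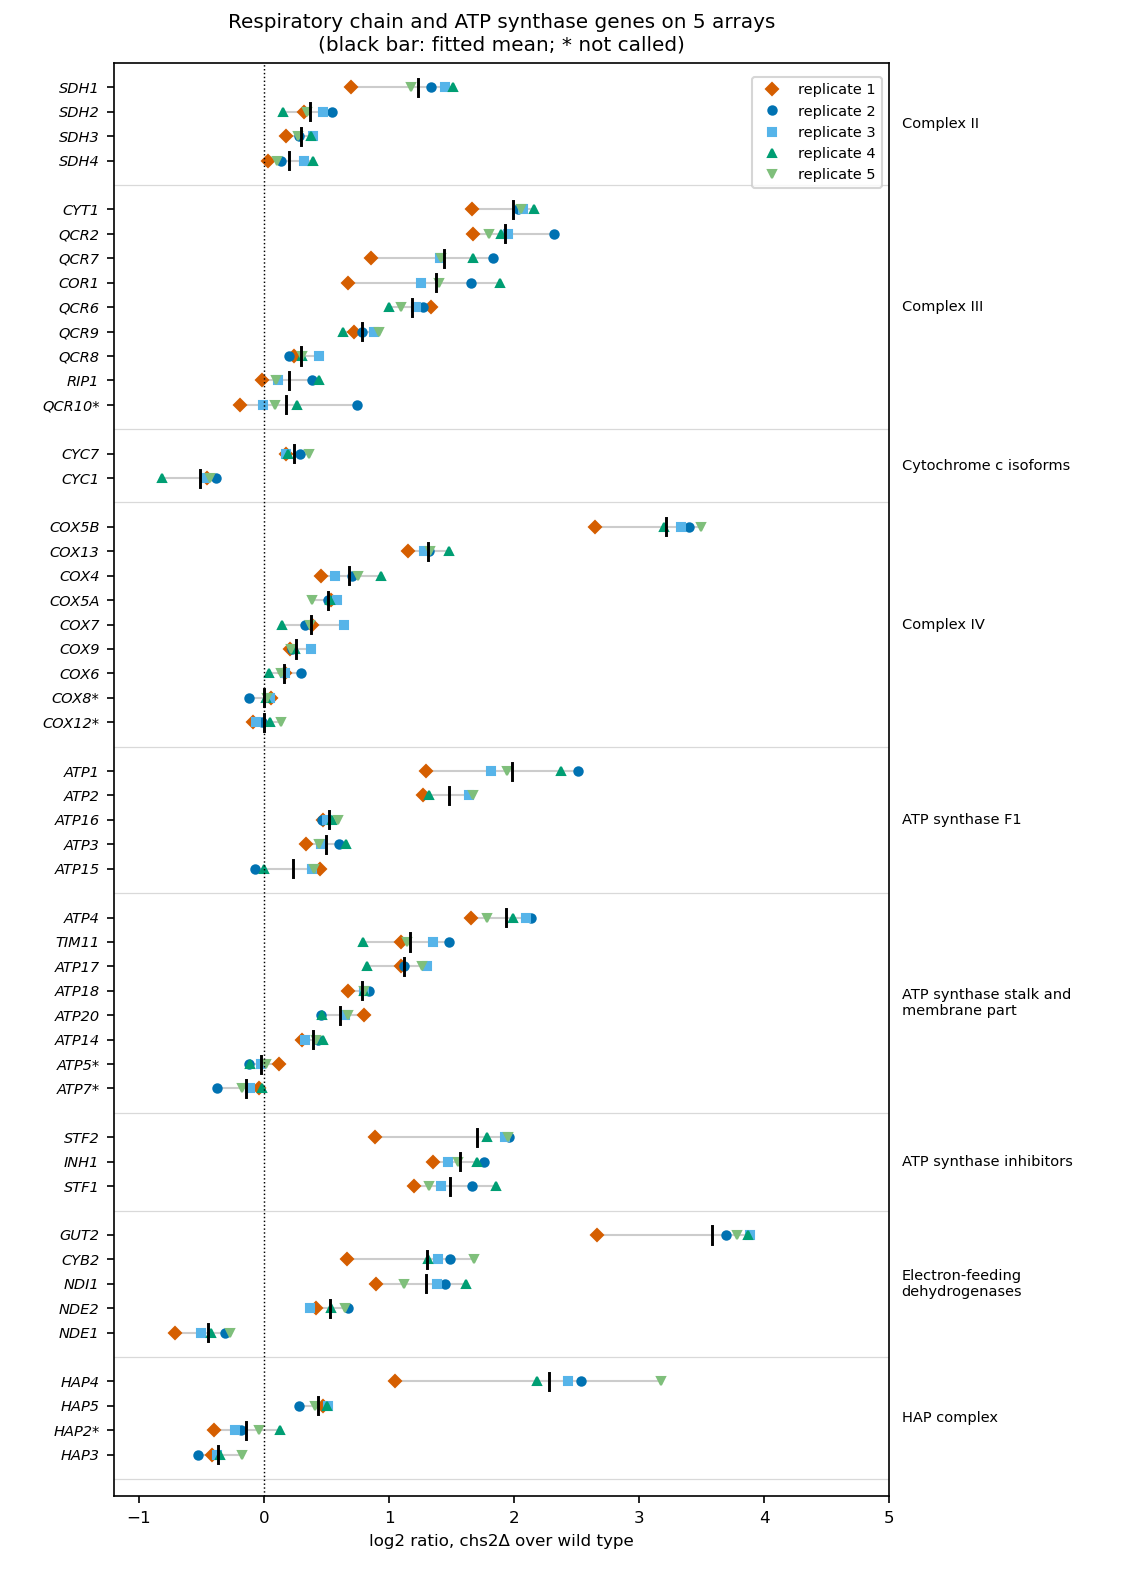
Log2 ratio of chs2Δ over wild type (x axis) for each of the 49 genes (y axis, by functional group) on 5 arrays, 1 symbol per array, with a black bar for the fitted mean and an asterisk for the 6 genes not called. GUT2 and COX5B lie farthest to the right, with means of 3.58 and 3.22, while CYC1, NDE1 and HAP3 are the called genes left of 0.

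The median ratio varied among the functional groups. The median ratio was 1.57 for the 3 inhibitors of the ATP synthase, 1.29 for the 5 dehydrogenases that feed electrons into the chain, 1.18 for the 9 subunits of complex III and 0.61 for the 13 subunits of the ATP synthase. It was 0.37 for the 9 subunits of complex IV, 0.33 for the 4 subunits of complex II and 0.14 for the 4 HAP genes. The cytochrome c pair had a median of -0.14, which became 0.36 when each array was centred on its median and no loess curve was used. The other group medians stayed above 0 under that centring, at 0.08 for the HAP genes, 0.18 each for complexes II and IV, and up to 1.52 for the inhibitors. No test was made of differences between groups.

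**Figure D2:**
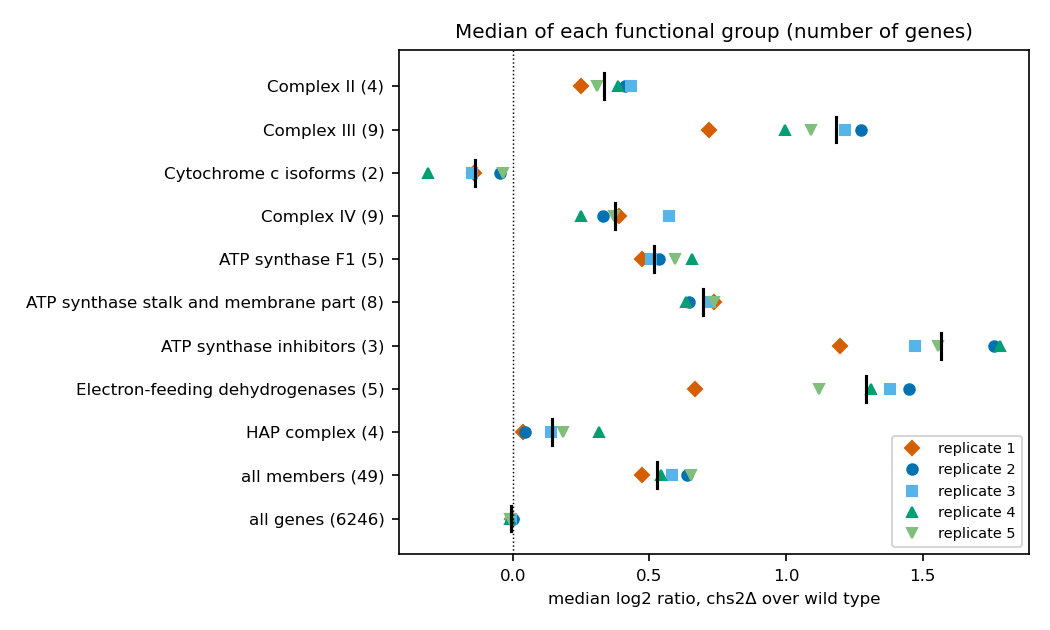
Median log2 ratio of chs2Δ over wild type (x axis) over the genes of each functional group, with the number of genes in brackets (y axis), 1 symbol per array and a black bar for the median of the fitted ratios. The medians of all 6246 genes sit near 0 on every array, where the normalization puts them, and the medians of the 49 genes lie between 0.47 and 0.65.

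Among the dehydrogenases that hand electrons to the chain, 4 of 5 rose and 1 fell, where 35.7% of all genes were called higher and 36.0% lower. GUT2, the mitochondrial glycerol-3-phosphate dehydrogenase, had levels of 10.14, 11.38, 11.44, 11.17 and 11.01 in chs2Δ, against 7.48, 7.68, 7.55, 7.30 and 7.22 in wild type. The groups were far apart, and the chs2Δ level of replicate 1 was the lowest of its group. GUT2 was 11.96-fold higher in chs2Δ (log2 3.58, SE 0.17, limma adjusted p = 8.26e-07), the highest ratio of the 49 genes, and without replicate 1 it was 14.0-fold higher. CYB2, the L-lactate dehydrogenase that reduces cytochrome c, was 2.47-fold higher with log2 ratios between 0.67 and 1.68.

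The NADH dehydrogenases did not move together. NDI1, which oxidises NADH in the matrix, was 2.45-fold higher, with log2 ratios between 0.89 and 1.62. NDE1, the main enzyme for cytosolic NADH on the outer face of the inner membrane, had levels of 10.06, 10.24, 10.20, 10.17 and 10.17 in chs2Δ, against 10.77, 10.55, 10.71, 10.59 and 10.45 in wild type. All 5 chs2Δ levels were below the 5 wild type levels, although the gap was small, and NDE1 fell to 0.734 of wild type (log2 -0.45, SE 0.07, limma adjusted p = 6.43e-04). Its paralogue NDE2 had levels of 6.38, 7.05, 6.79, 7.10 and 6.91 in chs2Δ, against 5.96, 6.38, 6.43, 6.56 and 6.26 in wild type. These levels overlapped across arrays, yet the chs2Δ level was the higher on each single array, and NDE2 was 1.44-fold higher (log2 0.53, SE 0.06, limma adjusted p = 1.09e-04). NDE2 was dim, with signal above background on 4 arrays in chs2Δ and on 3 in wild type.

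In complex II, the succinate dehydrogenase that links the citric acid cycle to the chain, all 4 subunits were called higher. The share of all genes called higher was 35.7%. SDH1, its flavoprotein subunit, had levels of 7.98, 8.63, 8.62, 8.68 and 8.46 in chs2Δ, against 7.28, 7.29, 7.18, 7.16 and 7.29 in wild type. The groups did not overlap, and replicate 1 had the lowest chs2Δ level. SDH1 was 2.35-fold higher (log2 1.23, SE 0.11, limma adjusted p = 2.35e-05), while the iron-sulfur subunit SDH2 was 1.29-fold and the membrane anchor SDH3 1.23-fold higher.

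SDH4, the other membrane anchor, had the lowest ratio of complex II. Its levels were 7.94, 8.10, 8.18, 8.33 and 7.89 in chs2Δ, against 7.91, 7.96, 7.87, 7.94 and 7.79 in wild type, which overlapped. It was 1.15-fold higher (log2 0.20, SE 0.07, limma adjusted p = 0.0274). The anchors turned direction with the normalization, since median centring put SDH3 at -0.09 and SDH4 at -0.08, with neither called.

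YJL045W, the paralogue of SDH1, stayed below background in both strains on every array. Its levels were 6.14, 6.07, 6.08, 6.13 and 6.10 in chs2Δ, against 6.06, 6.13, 6.21, 6.16 and 6.17 in wild type, and no fold is given for it.

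Complex III, which passes electrons to cytochrome c, had 8 of 9 subunits called higher and 5 of them at least 2-fold. Of all genes, 35.7% were called higher, and 10.2% were called higher and at least 2-fold. CYT1, cytochrome c1, stood at 9.57, 9.97, 9.89, 9.76 and 9.77 in chs2Δ, against 7.91, 7.94, 7.82, 7.59 and 7.71 in wild type. Every chs2Δ level was well above every wild type level, with the smallest difference on replicate 1. CYT1 was 3.99-fold higher (log2 2.00, SE 0.08, limma adjusted p = 4.57e-07).

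The core proteins of the complex rose with it. QCR2 was 3.80-fold and COR1 2.59-fold higher, with log2 ratios of 1.67 to 2.32 and of 0.67 to 1.89. Of the small subunits, QCR7 was 2.71-fold, the acidic QCR6 2.27-fold and QCR9 1.72-fold higher.

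The lowest ratios of complex III were those of QCR8, RIP1 and QCR10. QCR8 was 1.23-fold higher with a log2 ratio of 0.30, which became -0.01 under median centring. RIP1, the Rieske iron-sulfur protein, was 1.15-fold higher (limma adjusted p = 0.045), with overlapping levels. Its log2 ratios were 0.38 and 0.44 with chs2Δ in Cy3 and -0.015, 0.11 and 0.093 with chs2Δ in Cy5. The dye effect of RIP1 was -0.17 (limma adjusted p = 0.14). QCR10 had levels of 6.19, 6.80, 6.14, 6.44 and 6.35 in chs2Δ, against 6.38, 6.06, 6.15, 6.17 and 6.26 in wild type. It was not well above background in either strain on any array, so that no fold is given, and its levels overlapped (limma adjusted p = 0.22). QCR10 was called higher under median centring (limma adjusted p = 5.9e-05) and with a dye term in the fit (limma adjusted p = 0.032).

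The cytochrome c isoforms were called in opposite directions. CYC1 encodes iso-1, the main form of the mobile carrier in cells with oxygen. Its levels were 7.02, 7.18, 6.96, 6.81 and 6.84 in chs2Δ, against 7.47, 7.56, 7.43, 7.63 and 7.27 in wild type. The chs2Δ levels were all below the wild type levels, with the widest gap on replicate 4. CYC1 fell to 0.702 of wild type (log2 -0.51, SE 0.07, limma adjusted p = 2.84e-04), with signal above background on 3 arrays in chs2Δ and on 5 in wild type.

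CYC7 encodes iso-2, the minor form known from cells short of oxygen. Its levels were 6.22, 6.35, 6.32, 6.41 and 6.49 in chs2Δ, against 6.04, 6.07, 6.15, 6.22 and 6.14 in wild type, with CYC7 higher on every array and the groups overlapping narrowly. The call (limma adjusted p = 0.0039) rests on signal that was not well above background in chs2Δ on any array and was above it in wild type on 1 array, so that no fold is given. CYC7 was the only one of the 40 genes called higher that lacked signal above background in both strains on at least 3 arrays.

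Complex IV, the cytochrome c oxidase, had 7 of 9 subunits called higher, but only COX5B and COX13 reached 2-fold. The shares over all genes were 35.7% called higher and 10.2% called higher and at least 2-fold. Subunit 5 exists in 2 interchangeable forms, COX5A in cells with oxygen and COX5B in cells short of it. COX5B had levels of 10.35, 11.12, 10.96, 10.88 and 10.87 in chs2Δ, against 7.70, 7.71, 7.63, 7.68 and 7.37 in wild type. The groups lay wide apart, with replicate 1 the lowest of the chs2Δ levels. COX5B was 9.29-fold higher (log2 3.22, SE 0.12, limma adjusted p = 4.09e-07).

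COX5A moved far less. Its levels were 8.74, 8.67, 8.73, 8.61 and 8.57 in chs2Δ, against 8.20, 8.15, 8.14, 8.08 and 8.19 in wild type. These also did not overlap, and COX5A was 1.42-fold higher (log2 0.51, SE 0.05, limma adjusted p = 4.35e-05). Under median centring its ratio was 0.08 and was not called. The sources used here do not say how far the probes of the pair cross-hybridise.

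The remaining subunits of complex IV spread from 2.48-fold higher to ratios near 0. COX13 was 2.48-fold, COX4 1.61-fold, COX7 1.30-fold, COX9 1.19-fold and COX6 1.12-fold higher. Median centring left 3 of the 7 calls of complex IV, those of COX4, COX5B and COX13, with COX7 at 0.10 and COX6 and COX9 at -0.10 and -0.15. It added calls of COX8 at 0.22 and COX12 at 0.18 (limma adjusted p = 0.0078 and 0.020). With loess, COX8 had log2 ratios between -0.12 and 0.05 and was not called (limma adjusted p = 0.97). COX12 had levels of 7.11, 7.23, 7.17, 7.30 and 7.34 in chs2Δ, against 7.20, 7.25, 7.24, 7.25 and 7.20 in wild type, a mean ratio of 0.0017 (SE 0.05, limma adjusted p = 0.98).

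In the F1 head of the ATP synthase all 5 subunits were called higher, where the share over all genes was 35.7%. ATP1, the alpha subunit, had levels of 12.42, 13.41, 12.82, 13.97 and 13.05 in chs2Δ, against 11.12, 10.90, 11.01, 11.60 and 11.11 in wild type. The groups did not overlap. ATP1 was 3.96-fold higher (log2 1.99, SE 0.16, limma adjusted p = 1.09e-05). Its log2 ratios of 2.51 and 2.37 on the arrays with chs2Δ in Cy3 were above the 1.30, 1.81 and 1.94 on those with chs2Δ in Cy5, and its dye effect was -0.38 (limma adjusted p = 0.13).

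ATP2, the catalytic beta subunit, was 2.78-fold higher on the 4 arrays that measured it, with log2 ratios of 1.27, 1.64, 1.32 and 1.67. The smaller subunits of the head, those of the central stalk, moved less. ATP16, the delta subunit, was 1.43-fold and ATP3, the gamma subunit, 1.41-fold higher, and ATP3 turned to -0.13 under median centring, where it was not called. ATP15, the epsilon subunit, had levels of 8.27, 7.94, 8.10, 7.94 and 8.18 in chs2Δ, against 7.82, 8.01, 7.71, 7.94 and 7.78 in wild type. Replicates 2 and 4, the arrays with chs2Δ in Cy3, showed no increase, with log2 ratios of -0.072 and 0.00023. The arrays with chs2Δ in Cy5 had 0.45, 0.39 and 0.40, and the dye effect was 0.22 (limma adjusted p = 0.13). ATP15 was 1.18-fold higher at the edge of the threshold (log2 0.23, SE 0.09, limma adjusted p = 0.0477), with -0.03 under median centring.

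Of the 8 subunits of the stator stalk and membrane part of the ATP synthase, 6 were called higher, beside 35.7% of all genes. ATP4, subunit b of the stator stalk, had levels of 10.82, 11.10, 11.02, 11.03 and 10.87 in chs2Δ, against 9.16, 8.97, 8.93, 9.04 and 9.08 in wild type. The spread within either strain was small beside the gap. ATP4 was 3.82-fold higher (log2 1.93, SE 0.08, limma adjusted p = 5.17e-07). TIM11, subunit e, was 2.25-fold, ATP17, subunit f, 2.17-fold, ATP18 1.72-fold, ATP20, subunit g, 1.52-fold and ATP14, subunit h, 1.31-fold higher.

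ATP5 and ATP7, which also belong to the stator stalk, were not called. ATP5, the oligomycin sensitivity protein, had log2 ratios between -0.12 and 0.12 (limma adjusted p = 0.69). ATP7, subunit d, had levels of 8.24, 8.01, 8.16, 8.38 and 8.05 in chs2Δ, against 8.28, 8.38, 8.27, 8.40 and 8.23 in wild type. The chs2Δ level was the lower on each of the 5 arrays, but the groups overlapped, and the mean ratio of -0.14 (SE 0.06) was not called (limma adjusted p = 0.079). Under median centring both were called lower, with ratios of -0.61 for ATP5 and -0.52 for ATP7. The 8 subunits thus split into 6 higher and 2 lower, where 41.5% of all genes were called higher and 41.6% lower.

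The proteins that hold back ATP hydrolysis by the synthase rose as a set. INH1 encodes the inhibitor itself, STF1 a second inhibitor and STF2 a factor that stabilises their binding. STF2 had levels of 7.94, 8.95, 8.80, 8.79 and 8.86 in chs2Δ, against 7.05, 6.99, 6.88, 7.00 and 6.91 in wild type. Replicate 1 was far below the others in chs2Δ but still above every wild type level, and STF2 was 3.25-fold higher (log2 1.70, SE 0.15, limma adjusted p = 2.04e-05).

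INH1 was 2.97-fold higher with log2 ratios between 1.35 and 1.76. STF1 had levels of 7.89, 8.69, 8.35, 8.25 and 8.58 in chs2Δ, against 6.69, 7.03, 6.94, 6.40 and 7.26 in wild type. The groups did not overlap, and STF1 was 2.81-fold higher (log2 1.49, SE 0.10, limma adjusted p = 3.37e-06). All 3 log2 ratios were between 1.45 and 1.67 under median centring, but they moved with the background, and INH1 was 1.72-fold higher with no background correction and 5.28-fold higher with no offset in it.

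The HAP complex binds CCAAT sequences in the promoters of respiratory genes. HAP2, HAP3 and HAP5 form its DNA-binding part, and HAP4 supplies the activation domain and is known as the subunit whose amount limits the complex. HAP4 had levels of 9.54, 10.61, 10.71, 10.20 and 10.60 in chs2Δ, against 8.50, 8.08, 8.28, 8.02 and 7.43 in wild type. Every chs2Δ level was above every wild type level, with the smallest gap on replicate 1 and the largest on replicate 5. HAP4 was 4.84-fold higher (log2 2.28, SE 0.25, limma adjusted p = 6.69e-05), and 5.99-fold higher without replicate 1.

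The DNA-binding subunits differed less from wild type. HAP5 had levels of 8.33, 8.23, 8.29, 8.31 and 8.30 in chs2Δ, against 7.86, 7.95, 7.78, 7.80 and 7.89 in wild type, which did not overlap. It was 1.35-fold higher (log2 0.44, SE 0.06, limma adjusted p = 1.58e-04), but its ratio of 0.13 under median centring was not called, which left 1 HAP gene higher and 1 lower. HAP3 had levels of 7.10, 7.17, 7.14, 7.23 and 7.20 in chs2Δ, against 7.52, 7.70, 7.52, 7.58 and 7.38 in wild type. All of the chs2Δ levels were the lower ones, and HAP3 fell to 0.774 of wild type (log2 -0.37, SE 0.06, limma adjusted p = 7.47e-04). HAP2 had levels of 6.85, 7.18, 7.05, 7.47 and 7.26 in chs2Δ, against 7.25, 7.36, 7.28, 7.35 and 7.30 in wild type, with overlap and no call (limma adjusted p = 0.12).

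**Figure D3:**
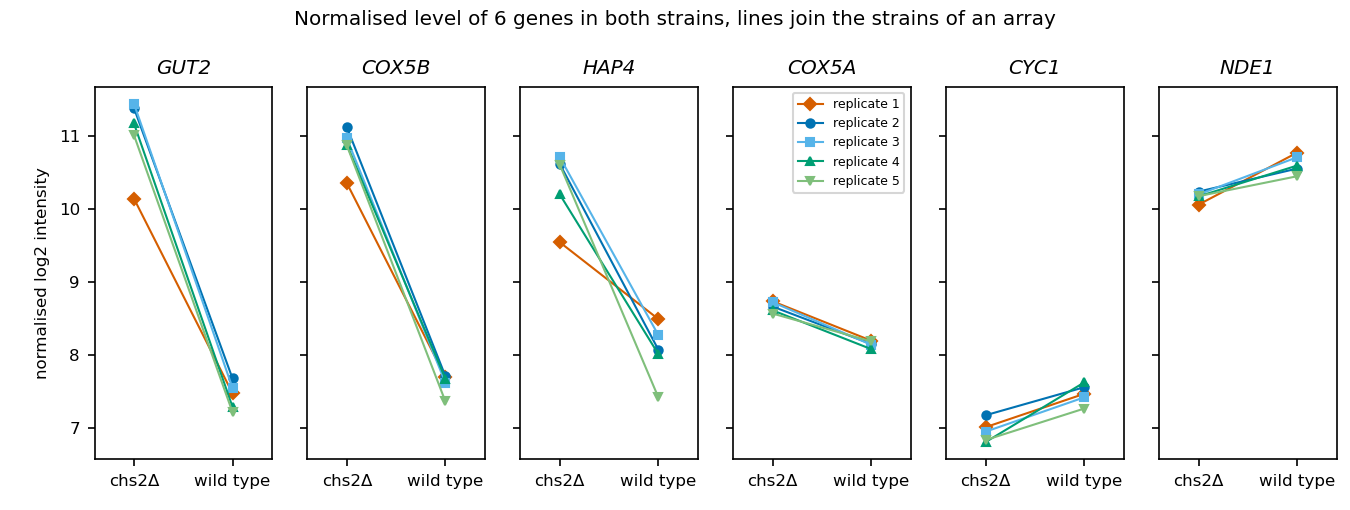
Normalised log2 intensity (y axis) of 6 genes in chs2Δ and in wild type, with 1 symbol per array and a line that joins the strains of an array. GUT2, COX5B and HAP4 fall steeply from left to right, while COX5A differs by 0.51 and CYC1 and NDE1 are the lower in chs2Δ on each array.

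Partner genes were set against each other on each array, as the difference of their log2 ratios. Over 5 such differences an exact two-sided sign-flip permutation test cannot give a p below 0.0625, so no pair could pass 0.05, and each of the 5 differences compared had this p, with an adjusted p of 0.0625. COX5A minus COX5B was -2.71 ± 0.37 log2 units (SD, n = 5 arrays), between -2.11 on replicate 1 and -3.12 on replicate 5. It was -2.52 under median centring. NDE1 minus NDE2 was negative on 5 of 5 arrays and averaged -0.97 ± 0.10 (SD). This difference moved with the processing, to -2.31 under median centring, -1.80 with no offset in the background correction and -0.61 with no background correction.

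HAP4 exceeded the mean of the other HAP genes by 2.30 ± 0.74 (SD, n = 5 arrays), between 1.16 on replicate 1 and 3.12 on replicate 5, and by 1.73 under median centring. CYC7 and YJL045W were near or below background, and the differences that rest on them have no firm size. CYC1 minus CYC7 was -0.75 ± 0.16 (SD, n = 5 arrays), but -1.41 under median centring and between -0.33 and -1.84 under the background settings. SDH1 minus YJL045W was 1.27 ± 0.39 (SD, n = 5 arrays), but 0.18 under median centring.

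**Figure D4:**
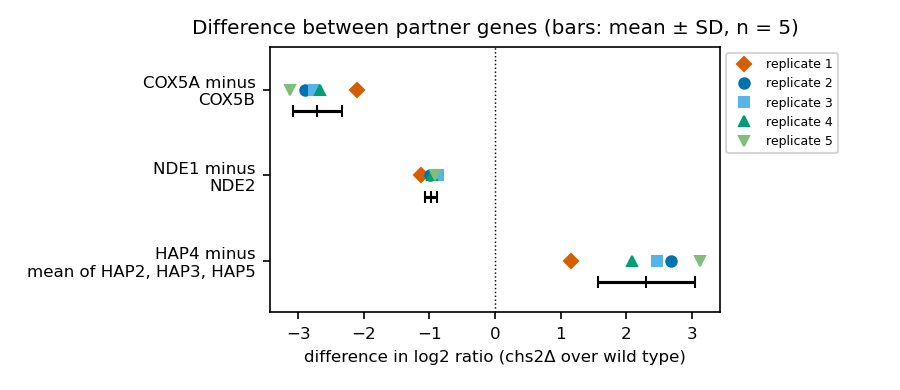
Difference in log2 ratio (chs2Δ over wild type, x axis) between partner genes (y axis), 1 symbol per array, with the mean and SD over 5 arrays as a bar below. COX5A minus COX5B and NDE1 minus NDE2 are below 0 on every array, and HAP4 minus its partners is above 0 on every array.

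The same array was often the lowest. Of the 39 genes called higher with values on all 5 arrays, 24 (61.5%) had their lowest ratio on replicate 1, as did 42.8% of all genes called higher with complete values. Replicate 1 was alone on its slide, while replicates 2 and 3 shared a slide and replicates 4 and 5 another, so that slide and replicate cannot be told apart for replicate 1. Without it 38 of the 49 genes were called higher and 3 lower, where the shares over all genes were 34.9% and 35.3%. Between the dyes, 11 of the 49 genes differed at an unadjusted p below 0.05 and 0 at an adjusted p below 0.05 in limma. Among all 6246 genes tested, 1297 differed at the unadjusted and 5 at the adjusted threshold.

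A few calls with small ratios were close to the threshold. RIP1 lost its call without any 1 of replicates 2, 3, 4 and 5, with ratios of 0.16, 0.23, 0.14 and 0.23 in that order. COX6 lost it without replicate 1, 2, 3 or 5 at ratios of 0.16, 0.13, 0.16 and 0.17, and ATP15 without replicate 1, 3 or 5 at 0.18, 0.19 and 0.19. SDH4 lost it without replicate 3 or 4, at 0.17 and 0.15. HAP2 was called lower without replicate 4, at -0.22.

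The normalization set the sign of several of the smaller ratios. Median centring left 33 of the 49 genes called higher and 5 lower, where 41.5% and 41.6% of all genes were called, and 33 of the 43 genes called with loess kept their call. GUT2 was then 7.80-fold, COX5B 6.06-fold and HAP4 3.20-fold higher. Folds of bright subunits shrank as well, to 2.37 for QCR2, 1.60 for COR1, 1.37 for QCR6, 2.15 for ATP1, 1.53 for ATP2, 2.36 for ATP4 and 1.36 for ATP17. The dim CYC7, QCR10 and NDE2 had log2 ratios of 1.07, 0.99 and 1.14 under that centring, and the bright NDE1 had a log2 ratio of -1.17. CYC1, NDE1 and HAP3 were lower in chs2Δ under either normalization.

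**Figure D5:**
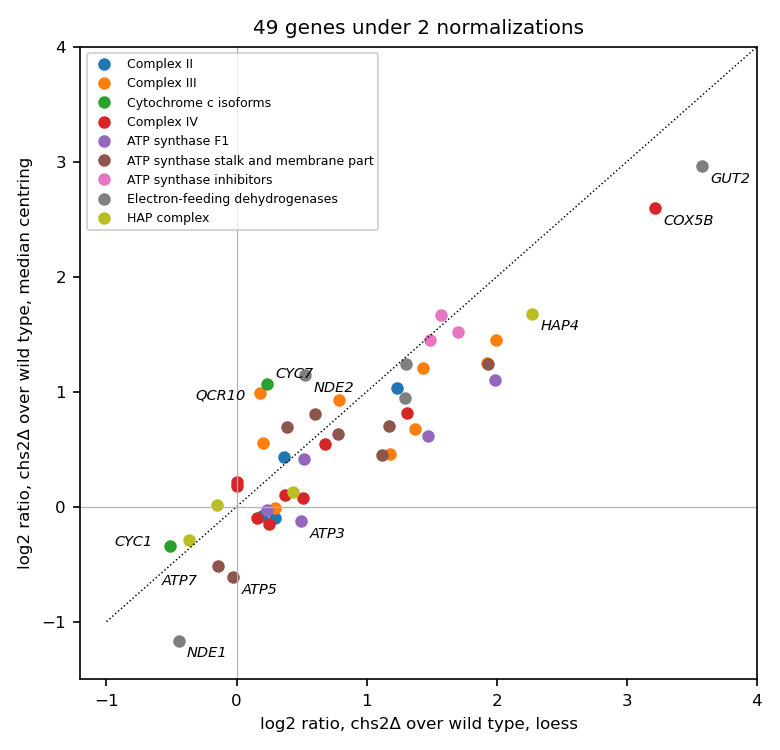
Log2 ratio of chs2Δ over wild type with loess (x axis) and with median centring (y axis), 1 point per gene coloured by group, and a dotted line where the values are equal. GUT2, COX5B and HAP4 stay far above 0 on either axis, while ATP5 and ATP7 drop to -0.61 and -0.52 with median centring.

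Other genes of respiration were taken from lists of known function. Over all genes tested, 35.7% were called higher and 36.0% lower with loess, and 41.5% and 41.6% under median centring. Of 7 further subunits and paralogues, 4 were called higher and 0 lower (5 and 1 under median centring), among them SHH3 (0.70), a paralogue of the SDH3 anchor, DLD2 (0.62), a D-lactate dehydrogenase, and ATP19 (0.54), subunit k of the ATP synthase. DLD2 was not called under median centring, at 0.05. None of the 7 mitochondrially encoded subunits was called with loess, 4 of them, COB, COX2, COX3 and ATP8, had no signal above background in either strain on any array, and with median centring all 7 were called higher at a median of 0.94.

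Counts of assembly factors stand beside shares over all genes of 35.7% higher and 36.0% lower, and of 41.5% and 41.6% under median centring. Of 24 genes for the assembly of complex IV and the translation of its subunits, 9 were called higher and 9 lower, and 12 and 5 under median centring. SCO2, a relative of a copper chaperone of complex IV, had log2 ratios of 1.45, 2.71, 2.27, 2.77 and 2.22 and was 4.87-fold higher. COX20 (1.13) and PET100 (1.07) rose, while PET309 (-0.46), PET54 (-0.37) and COX23 (-0.34) fell. PET309, an activator of COX1 translation, was above background in chs2Δ on 1 array, and neither PET309 nor COX23 was called under median centring.

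For complex III, 4 of 11 assembly genes were called higher and 3 lower, with CBP2 (0.79), CYT2 (0.48) and CBP4 (0.32) at the upper end and CBP3 (-0.82), CBP1 (-0.50) and CBS2 (-0.24) at the lower. Median centring put CYT2 at -0.05, and CBS2 did not pass under it. For the ATP synthase, with the complex II factor SDH5 in the same list, 5 of 12 were called higher and 3 lower. Here ATP22 (1.00), SDH5 (0.78) and NCA2 (0.66) rose and ATP12 (-0.25), AEP3 (-0.22) and ATP11 (-0.17) fell, and AEP3 turned to 0.12 under median centring. ATP11 and ATP12 encode the chaperones of the beta and alpha subunits.

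Ubiquinone, the carrier between the dehydrogenases and complex III, is made by the COQ genes, of which 5 of 10 were called higher and 2 lower, and 2 and 3 under median centring, where 41.5% of all genes were called higher and 41.6% lower. COQ5, a methyltransferase of the pathway, was 4.01-fold higher with log2 ratios between 1.23 and 2.61. COQ1 (0.77) and COQ9 (0.53) were also called higher, while COQ2 (-0.35) and COQ10 (-0.32) were called lower. COQ9 and COQ10 had ratios of -0.06 and 0.05 under median centring.

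Of 7 genes for carriers of ADP, ATP and phosphate and for porin, 4 were called higher and 3 lower, and 3 and 3 under median centring, beside the same shares over all genes. The ADP/ATP carriers AAC1 (1.64) and PET9 (1.28) rose, and AAC3 (-0.52), known from cells without oxygen, fell. The phosphate carrier PIC2 (0.87) rose, whereas the phosphate carrier MIR1 (-0.25) and the porin POR2 (-0.33) fell. The porin POR1 (0.71) was called higher, but it had a ratio of -0.08 under median centring and was not called there.

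Of 10 regulators of respiratory genes, 7 were called higher and 2 lower, and 5 and 4 under median centring. The shares over all genes were 35.7% and 36.0%, and 41.5% and 41.6% under median centring. ADR1 (1.48) and CAT8 (0.91), activators of genes for growth without glucose, and ROX1 (1.43), a repressor of hypoxic genes, rose. MIG1 (0.80) was called higher as well. SNF1 (-0.45), the kinase that relieves glucose repression, and HXK2 (-1.03), a hexokinase that takes part in that repression, fell, with HXK2 measured on 3 arrays. ROX1 had log2 ratios between 0.96 and 1.73 on the arrays on which COX5B, a gene known to be under its repression, had ratios of 2.65 to 3.50.

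Of 12 glucose-repressed genes of carbon metabolism, 9 were called higher and 2 lower, at a median of 0.86. Median centring also gave 9 higher and 2 lower. Among all genes, 35.7% were called higher and 36.0% lower with loess, and 41.5% and 41.6% under median centring. ALD4 (5.15), the mitochondrial aldehyde dehydrogenase, HXK1 (3.23), a hexokinase, and PCK1 (1.51), an enzyme of glucose synthesis, had the highest ratios. SUC2 (-0.59), the invertase, and ADH2 (-0.24), the alcohol dehydrogenase that consumes ethanol, were the genes called lower in this list, whose genes are known to be switched on when glucose is short. Under median centring the median ratio stayed above 0 for the glucose-repressed genes (0.90) and the regulators (0.29). It turned to -0.02 for the ubiquinone genes and to -0.08 for the carriers, and for the assembly genes of complexes III and IV, negative with loess at -0.10 and -0.07, it turned to 0.06 and 0.09.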

How the data were processed

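The authors labelled amplified RNA, hybridised 5 two-colour Agilent yeast arrays and quantified spots with ImaGene, whose version is 6.0.0 in the file headers. The deposited scanner files hold spot intensity, local background and a quality code, with no normalization. The authors also deposited log2 ratios, background-corrected and lowess-normalized in limma with dyes not turned, which were used as an alternative (r between 0.998 and 0.9997 with those computed here) and named through spot order.

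Ratios were computed in R 4.3.3 with limma 3.58.1 and statmod 1.5.0. Spots coded poor in the Cy5 or the Cy3 scan were left out, and the Cy5 scan alone coded 111 to 244 gene spots per array as poor. Background was corrected by normexp with an offset of 50, and each array was loess-normalized (span 0.3) with control spots given no weight. Spots of a gene were averaged, and ratios turned to chs2Δ over wild type. lmFit and eBayes ran over 5 arrays with Benjamini-Hochberg adjustment over 6246 genes, calls being made at an adjusted p below 0.05. Levels came from loess and Aquantile normalization. Signal above background means a spot more than 2 background SDs over the median of its background. The fitting step was tested on simulated data.

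The number of arrays limits the precision, and p-values measure the spread between these cultures of single strains. Members, lists and pairs were chosen with earlier results of these data known. Levels and ratios on every array are given for both genes of a pair, HAP4, the highest and lowest gene of each functional group and any gene called against its group. For the other lists, up to 3 called genes at either end are named, with POR1 and MIG1 in addition. Alternatives changed the background correction, offset, normalization, scaling, dye term, slide, spot flags, dim genes, spots, source of ratios, threshold and replicates. Gene names were matched to RefSeq for 5756 of 6256 genes.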

Additional observations from a re-analysis of the deposited data

Results flagged for a closer look

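In 8 of 65 values tested, the highest or lowest of the 5 arrays lay far outside the range of the other arrays by Dixon's test at its usual critical value, which by chance marks about 1 in 20 such values. On replicate 1, GUT2 had a log2 ratio of 2.66 where the other arrays had 3.70 to 3.88, STF2 had 0.89 where the others had 1.78 to 1.96, CYT1 had 1.66 where the others had 2.03 to 2.16, and ATP18 had 0.67 where the others had 0.80 to 0.84. Replicate 1 was low in all 4 of these.

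On replicate 2, COX8 had -0.12 where the others had 0.01 to 0.05, and the median over the 13 subunits of the ATP synthase was 0.54 where it was 0.64 to 0.68 on the others. ATP2 was missing from that median on replicate 2. On replicate 3, COX9 had 0.37 where the others had 0.21 to 0.25. On replicate 4, CYC1 had -0.81 where the others had -0.47 to -0.38. The causes were not tested.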

How the results depend on the processing

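The count of genes called higher was 40 and lay between 33 and 41 under all alternatives, and that of genes called lower was 3 in every alternative except median centring with 5 and leaving out replicate 4 with 4. At an adjusted p of at most 0.01 there were 36 genes higher and 3 lower, and the share over all genes was not computed at that threshold. Leaving out 1 replicate gave 36 to 38 genes higher and 3 to 4 lower. Of all genes, 32.4% to 35.5% were then called higher and 32.5% to 35.7% lower. The median over the 49 genes was 0.53 to 0.57 in these fits. Differences were -2.86 to -2.61 for COX5A minus COX5B, -0.998 to -0.93 for NDE1 minus NDE2 and 2.10 to 2.59 for HAP4 minus its partners. The fit was paired by array, since each ratio sets chs2Δ against wild type on 1 array. Treating the slide as a random block (consensus correlation -0.134) changed no call.

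Group medians moved with the background correction and with the centring. Without background correction they were 0.19 for complex II, 0.88 for complex III, 0.22 for complex IV, 0.43 for the F1 head and for all ATP synthase subunits, 0.34 for the stalk and membrane part, 0.82 for the inhibitors, 0.75 for the dehydrogenases and 0.35 for all 49 genes. With an offset of 0 they were 0.44 for complex II, -0.017 for the cytochrome c pair, 0.72 for the F1 head, 1.04 for the stalk and membrane part, 1.02 for all ATP synthase subunits, 2.23 for the inhibitors and 0.93 for all 49 genes. Median centring gave 0.18 for complex II and for complex IV, 0.93 for complex III, 0.36 for the cytochrome c pair, 0.42 for the F1 head and 0.62 for all 49 genes. Other moves were those of the 49 genes to 0.60 with all coded spots left out, 0.61 without dim genes and 0.63 with the first spot only, of the F1 head to 0.63 with the first spot, of the cytochrome c pair to -0.51 without dim genes, and of complex II to 0.42 and the ATP synthase to 0.55 on the slide of replicates 2 and 3 alone. GUT2 was 7.41-fold higher without background correction and 14.8-fold higher with an offset of 0. The median of all genes moved by under 0.1 in each setting, but the loess curve or the median centring itself puts this median near 0.

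Signs turned for genes near 0. Under median centring they also turned for genes called higher with loess, such as ATP3 at 0.50 and SDH3 at 0.30 with loess. Under median centring the ratios were -0.094 for SDH3, -0.081 for SDH4, -0.015 for QCR8, -0.10 for COX6, -0.15 for COX9, -0.13 for ATP3, -0.029 for ATP15 and 0.018 for HAP2, which was 0.041 on the slide of replicates 4 and 5 alone. COX8 and COX12 were called higher under median centring, at 0.22 and 0.18. COX8 was -0.0030 without background correction, -0.0071 with a dye term, -0.0025 without coded spots, -0.038 on the slide of replicates 2 and 3, and between -0.011 and 0.033 with 1 replicate left out, negative without replicate 1, 3, 4 or 5. COX12 was -0.00054 without background correction, -0.013 with slides as replicates, -0.011 with deposited ratios, -0.0035 without coded spots, -0.042 on the slide of replicates 2 and 3, and between -0.032 and 0.024 with 1 replicate left out, negative without replicate 4 or 5. ATP5 was 0.021 without background correction and 0.024 with the first spot. The causes were not tested. Dim signal limits CYC7, QCR10, NDE2, YJL045W and the mitochondrially encoded subunits.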
